A study of Homo sapiens with 8 samples.

Results

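The thioredoxin, sulfiredoxin and peroxiredoxin genes TXN, TXNRD1, TXNRD2, SRXN1 and PRDX1 to PRDX6 were followed in A549 cells, an established human lung adenocarcinoma line, after silencing of NFE2L2. They are 10 of the 60291 genes in the count files, and all 10 were among the 17811 genes tested. They were taken by symbol, with earlier results of these data known. For each library 250000 cells were treated, and RNA was collected 48 h later. The 3 NFE2L2 siRNA libraries come from 3 different duplexes at 5 nmol, each transfected 1 time. The 4 control siRNA libraries come from 2 control duplexes at 5 nmol, each transfected in 2 repeats, and 1 mock library had transfection without siRNA. All groups share the same parental line, which carries a KEAP1 mutation that leaves the NFE2L2 protein stabilised. Libraries of 1 control duplex share that duplex, and nothing in the labels says that the transfections came from separate cultures, so p-values measure the spread between these libraries, part of which may be technical.

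NFE2L2 encodes NRF2, a transcription factor that binds antioxidant response elements near genes for redox enzymes and whose turnover is directed by KEAP1. Thioredoxin (TXN) is a small protein that reduces disulfides in its clients, and thioredoxin reductases, which are selenoproteins, recharge it with electrons from NADPH. Peroxiredoxins remove peroxides with a reactive cysteine; most are recharged by thioredoxin, whereas sulfiredoxin (SRXN1) repairs the overoxidised form. TXN, TXNRD1, SRXN1, PRDX1, PRDX2 and PRDX6 act mainly in the cytosol, TXNRD2 and PRDX3 in mitochondria, PRDX4 in the endoplasmic reticulum, and PRDX5 in several compartments.

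The sequences around the starts of TXNRD1 are shown because TXNRD1 was the gene of this family with the largest change, and because among the members with a RefSeq promoter (250 bases before to 50 after a start, GRCh38.p14) it was the only one with a match to TGACNNNGC, the core letters of the antioxidant response element. Both strands were searched, and matches are in capitals (a match on the opposite strand reads as its reverse complement). The match is held by 13.3% of the 35116 promoters in the RefSeq table. The first TXNRD1 promoter lies at chr12:104215529-104215828 and the second at chr12:104286782-104287081, both on the plus strand. Their matches begin 99 and 8 bases before the first start, and 102 bases before the second.
TXNRD1 promoter 1: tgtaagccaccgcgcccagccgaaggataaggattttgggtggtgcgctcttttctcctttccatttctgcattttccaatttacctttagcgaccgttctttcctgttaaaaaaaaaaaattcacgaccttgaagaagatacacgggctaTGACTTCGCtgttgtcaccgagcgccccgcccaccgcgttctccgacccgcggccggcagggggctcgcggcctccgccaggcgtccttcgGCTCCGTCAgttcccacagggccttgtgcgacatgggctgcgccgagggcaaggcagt
TXNRD1 promoter 2: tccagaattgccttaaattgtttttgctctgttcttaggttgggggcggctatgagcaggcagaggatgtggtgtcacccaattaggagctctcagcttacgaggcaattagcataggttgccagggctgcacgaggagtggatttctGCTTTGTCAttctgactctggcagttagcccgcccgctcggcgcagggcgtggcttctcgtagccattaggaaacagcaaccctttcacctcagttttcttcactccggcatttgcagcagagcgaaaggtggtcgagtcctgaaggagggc
Promoter windows for TXN, TXNRD2, SRXN1 and PRDX2 to PRDX5 were present in the table and held no match. PRDX1 and PRDX6 were not in it.

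A wider window was read from GRCh37, the build of the count files, from 1000 bases before to 100 after the start of each gene's canonical transcript. In it 36.8% of the 17073 windows held a match, so a match in 1 gene is a common event. It was found for TXN, TXNRD1, PRDX1, PRDX2, PRDX4 and PRDX6 and not for SRXN1, TXNRD2, PRDX3 or PRDX5. Matches for 3 of the genes whose treated libraries all lay under the controls follow, each with its flanks and in the direction of the gene. They begin 581 bases before the start of TXN, 141 before that of PRDX1 and 338 and 294 before that of PRDX6, which has 2.
TXN (chr9:113019360-113019368, minus strand gene): actaaaccGCTGTGTCAagctggag
PRDX1 (chr1:45987689-45987697, minus strand gene): gggaaagcGCCGAGTCAttccggcg
PRDX6 (chr1:173446136-173446144, plus strand gene): tacgccctGCAGAGTCAaacctggc
PRDX6 (chr1:173446180-173446188, plus strand gene): gggcaacgTGACCGAGCcccgcatc
Such matches describe letters and are not measured binding sites.

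The target of the siRNA was lower in each treated library. NFE2L2 was left at 29.5%, 46.6% and 26.6% of the control mean by duplexes 1, 2 and 3, with a log2 fold change of −1.55 (standard error 0.179, edgeR quasi-likelihood test, adjusted p = 0.000994). Reads counted on genes numbered 35525141 to 41645410 per library. Of the genes tested, 2.76% passed an adjusted p of 0.01, 1.36% as lower and 1.39% as higher with NFE2L2 siRNA. The epithelial keratins KRT8 and KRT18 stood at 2827 CPM (counts per 1000000 gene counts) or more in every library. The other epithelial markers were lower, with CDH1 at 100 to 237 CPM, KRT19 at 39.85 to 113.5 and EPCAM at only 3.55 to 10.9. Of the markers of other cell types, PTPRC and CD3E (leukocyte), VWF (endothelial) and COL1A2 and DCN (fibroblast) did not exceed 0.135 CPM in any library. The summed markers were 7.66 to 11.1 CPM (NFE2L2 siRNA) and 4.40 to 6.71 CPM (controls) for leukocytes (nearly all CD14), 0.615 to 0.987 and 0.215 to 0.305 for endothelium, and 9.28 to 13.7 and 3.99 to 4.54 for fibroblasts (nearly all COL1A1). Of the markers, COL1A1 (edgeR adjusted p = 0.00049) and CDH5 of the endothelial list (edgeR adjusted p = 0.0082) passed the threshold. The part of the markers in the results below was not tested.

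With NFE2L2 siRNA most cytosolic members were lower, while the mitochondrial TXNRD2 and PRDX3 showed no detectable change. TXNRD1, SRXN1, TXN and PRDX1 fell past the threshold, none of the 10 genes rose past it, and 6 did not pass (edgeR, adjusted p over all genes tested). The share of members lower, 4 of 10, stands against 1.36% of all genes tested. The members were chosen with earlier results of these data known, so this contrast is not independent support. In 5 genes, these 4 and PRDX6, the 3 treated libraries were all lower than the lowest control, a pattern seen in 11.4% of all genes tested, and in none of the 10 were the 3 treated libraries all higher than the highest control, which 11.9% of all genes did. The median log2 fold change was −0.37 over the 10 members and 0.01 over all genes tested. For each of the 5 separated genes the exact permutation test over the 35 divisions of the libraries gave p = 0.0571, the smallest value it can give here, so it cannot reach 0.05. In bulk libraries such as these, fewer cells with a transcript and less of it per cell cannot be told apart.

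**Figure D1:**
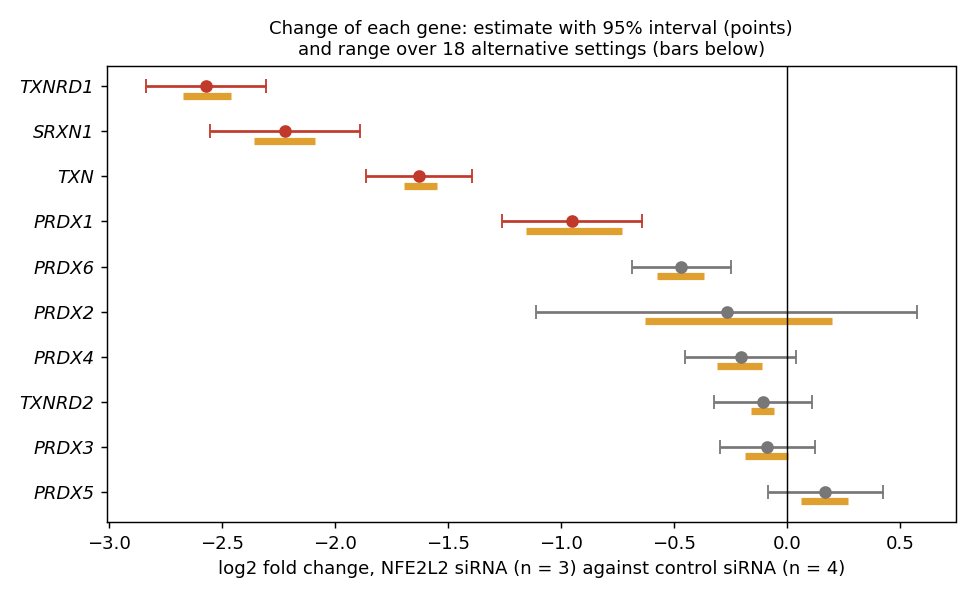
Log2 fold change of each gene (horizontal axis) between NFE2L2 siRNA (n = 3) and control siRNA (n = 4) libraries; points with lines are edgeR estimates with 95% intervals (red, adjusted p under 0.01), and bars below them span 18 alternative settings. TXNRD1, SRXN1, TXN and PRDX1 lie left of 0 with intervals that end at or below −0.64.

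**Figure D2:**
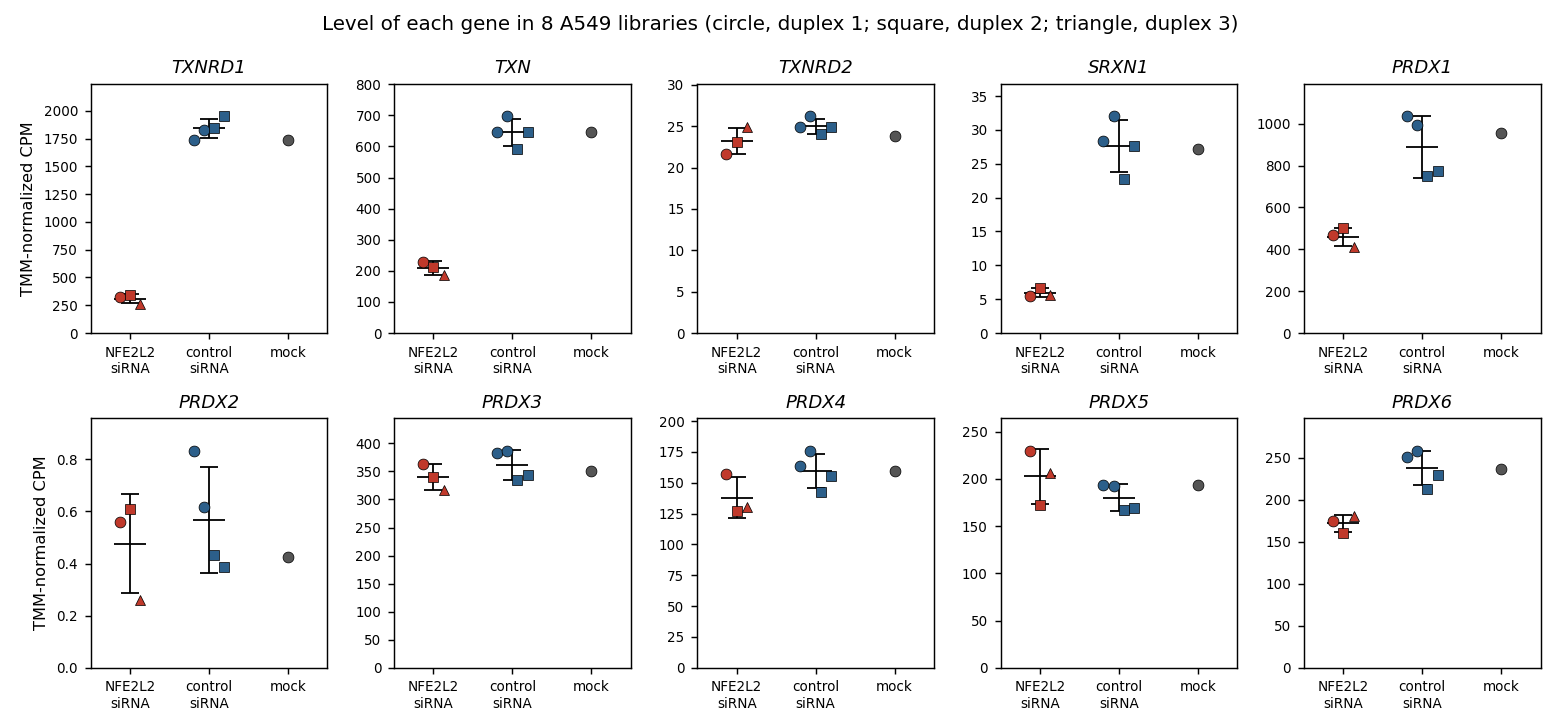
Normalized level (CPM, vertical axes from 0) of each gene in each of 8 libraries; symbols mark the siRNA duplex, horizontal bars the mean and vertical bars the SD of a group. The red NFE2L2 siRNA points lie under all blue control points for TXNRD1, TXN, SRXN1, PRDX1 and PRDX6 and mix with them for the other genes.

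TXNRD1, the cytosolic thioredoxin reductase, showed the deepest fall. Its gene (ENSG00000198431.11) spans bases 104609557 to 104744085 of chromosome 12, plus strand, in GRCh37, as do the positions below. It stood at 323, 346 and 261 CPM with NFE2L2 duplexes 1, 2 and 3. The control libraries gave 1741 and 1828 CPM for duplex 1 and 1842 and 1951 for duplex 2, and the mock library 1738. All 3 treated libraries were therefore far below the others, which stayed close together. The group levels were 310 ± 43.9 CPM (SD, n = 3) and 1841 ± 86.1 CPM (SD, n = 4), a log2 fold change of −2.57 (standard error 0.119, 95% interval −2.84 to −2.30, edgeR adjusted p = 4.39e-06). By p-value it ranked 6 among the 17811 genes.

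TXN, the thioredoxin that TXNRD1 recharges, fell as well, but less. Its gene (ENSG00000136810.8, minus strand) covers 113006090 to 113018787 of chromosome 9. NFE2L2 siRNA left 228, 212 and 187 CPM. The controls gave 647 and 697 CPM for duplex 1 and 591 and 647 for duplex 2, with 645 in the mock library. No treated library came near the lowest control. The group levels were 209 ± 21.1 CPM (SD, n = 3) and 645 ± 43.4 CPM (SD, n = 4), a log2 fold change of −1.63 (standard error 0.105, 95% interval −1.86 to −1.39, edgeR adjusted p = 2.21e-05).

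The transcripts of this pair were lower by different amounts. Per kb of canonical transcript, TXNRD1 amounted to 0.267 to 0.311 of TXN with NFE2L2 siRNA and to 0.501 to 0.595 of it in the controls, without overlap (mock 0.515). This was 1 of 6 ratios computed, and its exact permutation p was 0.0571, the smallest possible (0.0686 after Benjamini-Hochberg adjustment over the 6).

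TXNRD2, the mitochondrial reductase (ENSG00000184470.15, chromosome 22 from 19863040 to 19929343, minus strand), was much less abundant and showed no detectable change. Its levels were 21.7, 23.1 and 24.9 CPM with NFE2L2 siRNA, against 24.9 and 26.2 CPM with control duplex 1 and 24.0 and 24.9 with duplex 2. The groups overlapped, but only the treated library at 24.9 CPM reached the control range. Those at 21.7 and 23.1 CPM lay under the lowest control, at 24.0 CPM. The mock library, at 23.8 CPM, lay within the treated range. The log2 fold change was −0.11 with a 95% interval from −0.32 to 0.11 (edgeR adjusted p = 0.538). Per kb, TXNRD1 transcripts were 35.1 to 39.5 times those of TXNRD2 in the controls and 5.28 to 7.54 times with NFE2L2 siRNA (exact permutation p = 0.0571, adjusted 0.0686).

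SRXN1, which repairs overoxidised peroxiredoxins, was the second most reduced gene. The gene (ENSG00000271303.1, minus strand) covers 627259 to 633844 of chromosome 20. The libraries held 5.42, 6.69 and 5.69 CPM with NFE2L2 siRNA. In the controls they held 28.3 and 32.0 CPM with duplex 1 and 22.7 and 27.6 with duplex 2, and in the mock library 27.2. The treated values lay close together and well under the lowest control, which came from control duplex 2. Group levels were 5.93 ± 0.668 CPM (SD, n = 3) and 27.7 ± 3.82 CPM (SD, n = 4), a log2 fold change of −2.22 (standard error 0.148, 95% interval −2.55 to −1.89, edgeR adjusted p = 2.79e-05). In GENCODE v44, 90.7% of the SRXN1 transcript lies in exons that a gene on the same strand, ENSG00000270299, also uses. Reads that fit both genes are not counted for either, so the level of SRXN1 may be understated; this was not tested.

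PRDX1, the most counted peroxiredoxin here, fell to between 46.3% and 56.3% of its control mean. The gene (ENSG00000117450.9, minus strand) covers 45976586 to 46008404 of chromosome 1. The NFE2L2 siRNA libraries gave 466, 500 and 411 CPM. Control duplex 1 gave 1036 and 994 CPM, control duplex 2 gave 751 and 772, and the mock library 957. The 2 control duplexes thus stood apart, and the treated libraries lay under both. The group levels were 459 ± 44.9 CPM (SD, n = 3) and 888 ± 148 CPM (SD, n = 4), a log2 fold change of −0.95 (standard error 0.139, 95% interval −1.26 to −0.64, edgeR adjusted p = 0.00371). The call was lost in 4 of 18 alternatives. With control duplex 2 alone the log2 fold change was −0.73 (edgeR adjusted p = 0.0435), with the repeats of a control duplex added up −0.95 (adjusted p = 0.0409), without NFE2L2 duplex 3 −0.88 (adjusted p = 0.0196) and without the second library of control duplex 1 −0.89 (adjusted p = 0.0169).

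PRDX6, which draws on glutathione rather than thioredoxin, was lower in every treated library but did not pass the threshold. The gene (ENSG00000117592.8, plus strand) covers 173446469 to 173457954 of chromosome 1. Its levels were 175, 160 and 180 CPM with NFE2L2 siRNA, 251 and 258 with control duplex 1, 213 and 229 with control duplex 2 and 237 in the mock library. The treated libraries did not overlap the controls. The log2 fold change was −0.47 (standard error 0.0973, 95% interval −0.69 to −0.25) with an edgeR adjusted p of 0.0183. With DESeq2 the adjusted p was 0.000588, with genes kept from 1 read in any library 0.00797, and with the mock library added to the controls 0.00708. These were the only 3 of 18 alternatives in which PRDX6 passed 0.01. With control duplex 2 alone the log2 fold change was −0.37 (edgeR adjusted p = 0.192). It was −0.46 (adjusted p = 0.17) with the repeats of a control duplex added up and −0.43 (adjusted p = 0.0715) without the second library of control duplex 1.

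The other peroxiredoxins overlapped between the groups. PRDX3, the mitochondrial enzyme (ENSG00000165672.5), had 364, 340 and 317 CPM with NFE2L2 siRNA, 383 and 387 with control duplex 1, 334 and 344 with duplex 2 and 351 in the mock library. Its log2 fold change was −0.09 (95% interval −0.30 to 0.12, edgeR adjusted p = 0.602). PRDX4, of the endoplasmic reticulum (ENSG00000123131.8), had 157, 127 and 130 CPM against 143 to 176 in the controls and 160 in the mock library. Only the library of NFE2L2 duplex 1 reached the control range, and the log2 fold change was −0.21 (95% interval −0.45 to 0.04, edgeR adjusted p = 0.274). PRDX5 (ENSG00000126432.9) had 230, 172 and 206 CPM against 167 to 193 in the controls and 194 in the mock library. It was the 1 member with a positive estimate, a log2 fold change of 0.17 (95% interval −0.09 to 0.42, edgeR adjusted p = 0.395), with NFE2L2 duplex 2 inside the control range.

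PRDX2, a cytosolic enzyme closely related to PRDX1, was barely counted. The treated libraries held 20, 24 and 11 reads, with 31 and 23 with control duplex 1, 16 and 14 with control duplex 2 and 17 in the mock library. No difference was detectable at these counts, since the 95% interval of the log2 fold change ran from −1.11 to 0.57 (edgeR adjusted p = 0.707). PRDX2 (ENSG00000167815.7, chromosome 19 from 12907634 to 12912614, minus strand) lies inside the span of HOOK2, on the same strand, in GENCODE v44, but 0% of its transcript lies in same-strand exons of other counted genes there. Of the 31-base windows of its transcript, 14.6% occur elsewhere in GRCh37. HOOK2 itself had a log2 fold change of 0.19 (edgeR adjusted p = 0.339). TXN, with 22.8% of its windows found elsewhere, held at least 21875 reads in each control library, and PRDX3, with 16.3%, at least 12377. The reads were counted on GENCODE v19, whose overlaps were not examined. The part of copies or of overlaps in the low count of PRDX2 was not tested, and its level is best taken as uncertain.

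The order of the genes by level per kb of canonical transcript shifted. In the controls PRDX1 stood at 940 ± 156 CPM per kb (SD, n = 4) and TXN at 876 ± 58.9, with overlapping ranges. They ranked 49 and 56 among 17073 genes with a canonical transcript. TXNRD1 followed at 477 ± 22.3 CPM per kb, apart from its neighbours on both sides. PRDX3 (215 to 249) and PRDX5 (194 to 224) overlapped, as did PRDX4 (149 to 184) and PRDX6 (126 to 153), whereas PRDX5 and PRDX4 did not. TXNRD2 (12.4 to 13.5) and SRXN1 (8.99 to 12.7) overlapped far below, and PRDX2 came last at 0.419 to 0.900. The exons that SRXN1 shares with another gene may understate its level, so its place, ranks and ratios here and below carry that limit. The place of PRDX2 is likewise uncertain.

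With NFE2L2 siRNA, PRDX1 came first at 435 to 529 CPM per kb (mean 486 ± 47.5, SD, n = 3), above TXN without overlap, and TXN (253 to 310) overlapped PRDX5 (200 to 267). TXNRD1, at 67.7 to 89.7 CPM per kb, lay below PRDX6 at 94.8 to 107, which it had exceeded in every control library. Its rank among the 17073 genes went from 108 to 761, that of TXN from 56 to 166, that of SRXN1 from 5625 to 10424 and that of PRDX3 from 228 to 230.

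Within the peroxiredoxins the composition, as counted, shifted away from PRDX1. The level of PRDX2 is uncertain, so the sum and the shares below carry that limit. The summed level of the 6 genes was 1263, 1176 and 1122 CPM per kb with NFE2L2 duplexes 1, 2 and 3 and 1480 to 1887 in the controls, with 1772 in the mock library. PRDX1 made up 39.1%, 45.0% and 38.8% of this sum in the treated libraries and 53.3% to 58.1% in the controls (mock 57.2%). The share of PRDX3 was 18.2% to 18.6% and 13.1% to 14.5%, although its own level overlapped between the groups. Per kb, PRDX1 amounted to 2.11 to 2.42 times PRDX3 with NFE2L2 siRNA and 3.69 to 4.45 times in the controls (exact permutation p = 0.0571, adjusted 0.0686). SRXN1 per PRDX1 was 0.00435 to 0.00517 against 0.0102 to 0.0134, and PRDX1 per PRDX6 was 4.08 to 5.58 against 6.02 to 7.39, each with the same p. SRXN1 per TXNRD1, at 0.0256 to 0.0332 and 0.0188 to 0.0267, overlapped (exact permutation p = 0.114).

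**Figure D3:**
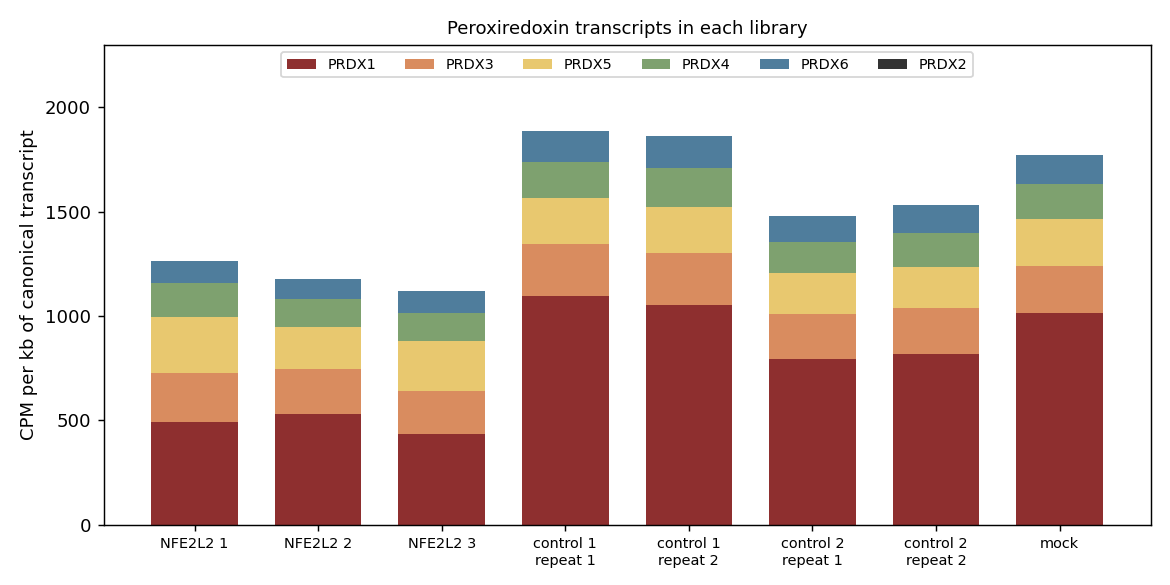
Stacked levels of the 6 peroxiredoxin transcripts (CPM per kb of canonical transcript, vertical axis) in each library, named by siRNA target, duplex and repeat. The PRDX1 segment is 435 to 529 CPM per kb in the 3 NFE2L2 siRNA libraries and 795 to 1097 in the 4 control libraries, and the PRDX2 segment is too thin to see in most bars. The level of PRDX2 is uncertain.

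The 3 NFE2L2 duplexes gave like values for the reduced genes although they left different amounts of NFE2L2 mRNA. Duplex 2 left the most NFE2L2, 46.6% of the control mean, and also the most TXNRD1 (18.8%), SRXN1 (24.2%) and PRDX1 (56.3%), but not the most TXN (32.9%, against 35.4% with duplex 1). Duplex 3 left 14.2% of TXNRD1, 20.6% of SRXN1, 28.9% of TXN and 46.3% of PRDX1. Each duplex has 1 library, so these differences have no replicate and were not tested.

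**Figure D4:**
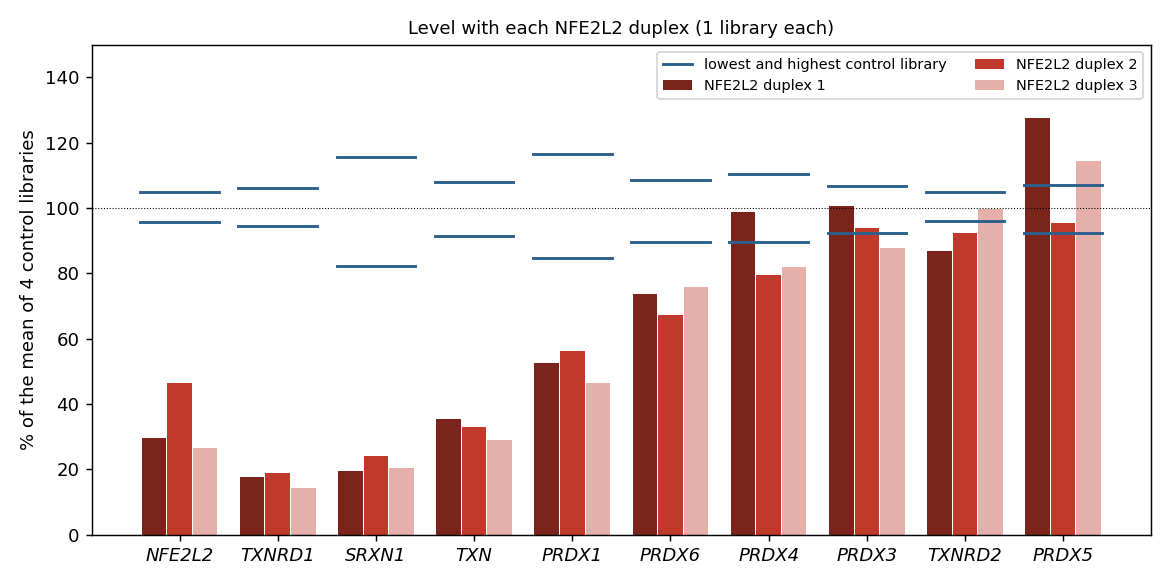
Level with each NFE2L2 duplex as a percentage of the mean of 4 control libraries (bars, 1 library each), with the lowest and highest control library as blue lines. The bars for TXNRD1 reach 14.2% to 18.8% and those for TXN 28.9% to 35.4%. For PRDX3 and TXNRD2 the tallest bar lies within the control lines. The TXNRD2 bars at 86.7% and 92.3% lie under its lowest control (96.1%). The PRDX3 bar at 87.6% also lies under its lowest control (92.4%).

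The difference between the 2 control duplexes gives a yardstick for an effect of a duplex itself. In a fit with separate control duplexes, 0% of the genes tested passed the threshold between them (edgeR quasi-likelihood test), 1293 had an unadjusted p under 0.05, and DESeq2 called 70. PRDX1 was lower with control duplex 2 than with control duplex 1 by a log2 difference of −0.41 (standard error 0.121, edgeR adjusted p = 0.457). In a fit of the 4 control libraries alone, which called 566 genes, that difference passed the threshold (−0.41, adjusted p = 0.00571). The other members differed between the control duplexes by −0.82 (PRDX2) to 0.09 (TXNRD1), and the difference was −0.12 for TXN, −0.26 for SRXN1 and −0.20 for PRDX6. These stand beside changes with NFE2L2 siRNA of −2.57 for TXNRD1, −1.63 for TXN, −2.22 for SRXN1, −0.95 for PRDX1 and −0.47 for PRDX6.

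Beyond the 10 members, the wider thioredoxin and glutaredoxin network held 2 reduced genes. Of 18 listed genes, 2 fell, 0 rose and 16 did not pass (edgeR), beside 1.36% lower and 1.39% higher of all genes tested, and the median log2 fold change was −0.08. In 7 of the 18 every treated library lay under every control, beside 11.4% of all genes tested. In 2 every treated library lay above every control, beside 11.9%. GSR, glutathione reductase, the counterpart of the thioredoxin reductases for glutathione, had a log2 fold change of −1.46 (174 ± 29.9 CPM against 479 ± 56.6, edgeR adjusted p = 0.000332). GLRX, the cytosolic glutaredoxin, had −0.87 (adjusted p = 0.000516). The most counted of the others were GLRX3, at −0.33 (adjusted p = 0.0875) with every treated library under every control, and TXNDC15, at 0.21 (adjusted p = 0.231). TXN2, the mitochondrial thioredoxin, was at 0.05 (adjusted p = 0.793) and was named after its value was seen. Of the other glutaredoxins, GLRX2 was at −0.29 (adjusted p = 0.119), with every treated library under every control, and GLRX5 at −0.18 (adjusted p = 0.265).

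Among 12 clients and partners of thioredoxin and the peroxiredoxins, 1 fell, 0 rose and 11 did not pass, beside the same 1.36% and 1.39% of all genes tested. The reduced gene was RRM2, a subunit of ribonucleotide reductase, an enzyme that thioredoxin can recharge, with 108 ± 33.8 CPM against 220 ± 11.3 and a log2 fold change of −1.02 (edgeR adjusted p = 0.00769). RRM1, the large subunit, was at −0.44 (adjusted p = 0.138), and RRM2B at 0.02 (adjusted p = 0.958). The median of this list was 0.11. None of 9 genes of oxidative protein folding in the endoplasmic reticulum passed (median 0.10), with P4HB at 0.05, PDIA6 at 0.02 and PDIA4 at 0.61 (adjusted p = 0.247). None of 8 genes of the machinery that inserts selenocysteine, which TXNRD1 and TXNRD2 require, passed either (median −0.15), with SARS1 at 0.05, SEPHS1 at −0.27 and SEPHS2 at −0.22. In 2 of these 8, SEPHS1 and SEPHS2, every treated library lay under every control, beside 11.4% of all genes tested. In 0 of the 8 did every treated library lie above. For reference, 11 of 11 other NRF2 target genes fell (median −2.04), from −1.19 for the ferritin heavy chain FTH1 to −3.45 for OSGIN1. This list too was chosen with earlier results of these data known.

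The genes inside TXNRD1 on its own strand were not reduced with it. EID3 (ENSG00000255150.1, chromosome 12 from 104697517 to 104698983) lies within TXNRD1 on the same strand. Its reads numbered 1410, 958 and 872 after NFE2L2 silencing, 333 to 425 in the controls and 416 in the mock library, so it rose where TXNRD1 fell (log2 fold change 1.50, standard error 0.206, edgeR adjusted p = 0.00267). The processed pseudogene RPL18AP3, also inside TXNRD1 on the plus strand, had 1188 to 1277 reads against 988 to 1210 (log2 fold change 0.05, adjusted p = 0.825). On the opposite strand the lncRNA ENSG00000257732 had 0, 9 and 2 reads against 14 to 22, and did not pass (adjusted p = 0.0461). The counting used strand, and reads that fit both a host gene and a gene inside it are not counted.

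**Figure D5:**
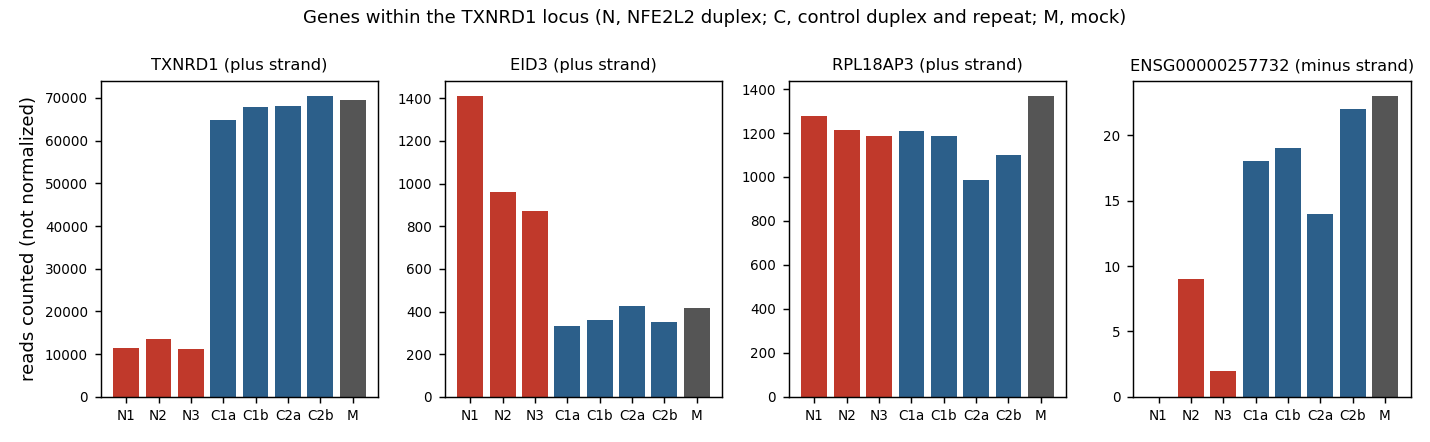
Reads counted on TXNRD1 and on 3 genes inside its span (vertical axes, not normalized) in each library, red for NFE2L2 siRNA, blue for control siRNA and grey for mock. EID3 has 872 to 1410 reads in the red bars and 333 to 425 in the blue bars, opposite to TXNRD1.

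Near the other members, MMACHC, which overlaps PRDX1 on the other strand, had a log2 fold change of 0.37 and did not pass (edgeR adjusted p = 0.237). PRDX6-AS1, antisense to PRDX6, had 7 to 14 reads against 11 to 16 (adjusted p = 0.469). Of 18 annotated pseudogenes of the members, 7 had any read, with at most 19 in a library. TXNP6, a processed copy of TXN, had 8, 4 and 1 reads against 13 to 19 (adjusted p = 0.0437, not past the threshold). Of the 31-base windows of TXN, 22.8% occur elsewhere in GRCh37, more than for PRDX3 (16.3%), PRDX2 (14.6%) and PRDX1 (11.8%). For TXNRD1 the share was 0.339% and for TXNRD2 and PRDX4 it was 0%. Reads with several positions were not counted, so levels of genes with copies may be understated.

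The genes whose profile over the 8 libraries was closest to each reduced member were found among 13341 genes with a mean of at least 50 reads. Likeness was the root mean square difference of log2(CPM + 0.5) after centring on the control mean. TXNRD1 was nearest to GCLM, the modifier subunit of glutamate-cysteine ligase (0.0852), then to NAMPT of NAD salvage (0.193) and PTGR1, a prostaglandin reductase (0.218). SRXN1 was nearest to NQO1, a quinone reductase (0.118), GCLC, the catalytic subunit of glutamate-cysteine ligase (0.144), and the ferritin light chain pseudogene FTLP3 (0.171). TXN was nearest to SRGN (0.122), ABCB6 (0.140) and the aldo-keto reductase AKR1C2 (0.148). PRDX1 was nearest to RAB5IF (0.0719), AIFM2, a quinone reductase that protects membrane lipids (0.10), and CEP20 (0.107). No member of the family was among the nearest 3 of another.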

How the data were processed

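Strand-specific, ribosome-depleted total RNA of 8 A549 transfections was sequenced. The authors aligned the reads to hg19 (GRCh37) with HISAT 0.1.6 and counted them with HTSeq 0.6.0 on GENCODE v19; the deposited values are raw counts per gene. Entries for unassigned reads were left out, so that 60.3% to 65.6% of all entries were on genes. A count of 3, taken as the floor, equals 0.0720 to 0.0845 CPM, which covers counting error only. Names, and the positions printed, were looked up in GENCODE v44 as mapped onto GRCh37 (55538 of 60291 IDs matched); TXNIP and PECAM1 were not analysed here.

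A gene was tested if any of the 7 siRNA libraries held 10 or more of its reads. The test was the quasi-likelihood test of edgeR 4.0.16 (R 4.3.3; TMM scaling, prior count 0.125), two-sided. P-values were adjusted by Benjamini-Hochberg over the whole table, and 0.01 was the threshold. CPM used TMM factors over all 8 libraries. A standard error is the size of the log2 fold change divided by the root of F. On simulated counts of 17323 genes with 200 changed, edgeR recovered 93% of 2-fold and 100% of 4-fold changes with 1 false call. The changed genes were drawn only from well-counted genes, and the simulation held no duplex effect and no spread particular to a gene. Its rates therefore do not apply to low counts such as those of PRDX2, and may be too high for the other members. DESeq2 1.42.0, limma-voom (limma 3.58.1), other filters, scalings, control sets, a threshold of 0.05 and the omission of each library were the alternatives. The mock library entered no main test. The labels name no batch.

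Members and gene lists were chosen with earlier results of these data known. Named were all members, NFE2L2 and KEAP1, listed genes past the threshold and the 3 most counted of each list, the 3 nearest profiles of TXNRD1, SRXN1, TXN and PRDX1, and overlapping genes or pseudogenes with a read; not all are printed. Of the listed genes, TXN2, NXN, TXNL1, GLRX2 and GLRX5 were chosen to be named after their values were seen. Promoter sequences are from RefSeq (GRCh38.p14). The canonical transcripts of GENCODE v44 gave lengths, and the copies of their 31-base windows were searched in GRCh37.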

Additional observations from a re-analysis of the deposited data

How the results depend on the processing

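TXN, TXNRD1 and SRXN1 fell past the threshold in 18 of 18 alternatives, and their log2 fold changes ranged from −1.70 to −1.55, from −2.67 to −2.46 and from −2.36 to −2.09. PRDX1 passed in 14 and PRDX6 in 3 of them at 0.01; at 0.05 PRDX6 also passed in the main setting. TXNRD2, PRDX2, PRDX3, PRDX4 and PRDX5 passed in 0 of 18. The sign of PRDX2 and of PRDX3 was not stable, with ranges of −0.63 to 0.20 and −0.19 to 0.00. The number of genes past the threshold was 491 and moved to 1319 with DESeq2, 1019 with genes kept from 1 read, 1456 at a threshold of 0.05, 120 with control duplex 1 alone, 59 with control duplex 2 alone, 78 with the control duplexes summed and 772 with the mock library among the controls. With each library left out it ranged from 163 to 915: 915 without NFE2L2 duplex 2, 238 without NFE2L2 duplex 3, 277 and 163 without the first and second library of control duplex 1, and 221 and 198 without the second and first of control duplex 2. The lower genes made up 53 of the 59 with control duplex 2 alone and 592 of the 1319 with DESeq2. Between the control duplexes 0 members passed, and 1 (PRDX1) did with the 4 control libraries alone. The causes were not tested. No paired analysis was possible because a number means a duplex for NFE2L2 siRNA and a repeat of a duplex for the controls. Among the members depth limits PRDX2, with 11 to 31 reads.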

Other observations

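KEAP1, the adaptor that directs NRF2 to degradation, had 38.5, 60.4 and 44.9 CPM with NFE2L2 siRNA and 78.3 to 90.9 CPM in the controls, a log2 fold change of −0.83 (edgeR adjusted p = 0.00922). NXN, nucleoredoxin, an oxidoreductase of the thioredoxin family, was at 73.8 ± 12.7 CPM (SD, n = 3) against 51.9 ± 5.83 (SD, n = 4), a log2 fold change of 0.51 that did not pass 0.01 (edgeR adjusted p = 0.0461), while TXNL1, a thioredoxin-like protein of the proteasome, was at −0.36 (adjusted p = 0.0311). With a pseudocount of 0.1 CPM in place of 0.5, the third gene nearest to TXNRD1 was NAMPTP1 (0.205) in place of PTGR1, and TBXAS1 (0.147) replaced ABCB6 beside TXN.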
